A study of Mus musculus with 11 samples.

Results

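The replication-dependent histone genes are the clustered genes that supply most of the H1, H2A, H2B, H3 and H4 protein packed onto new DNA. They were chosen by symbol, as every gene whose name starts with Hist1h, Hist2h, Hist3h or Hist4h and that had any count in the data. This gave 67 genes. Of these, 59 were among the 22454 genes with any count in cultured neural progenitor cells (NPCs), and 65 were among the 25445 genes with any molecule in the single cells. The 67 also take in the pseudogenes Hist3h2bb-ps and Hist1h2aj and a few genes known for expression in the testis, such as Hist1h1t, so the name describes the set and not every gene in it.

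The study deleted Syncrip, an RNA-binding protein, from the dorsal neocortex of mice in which loxP sites flank exons 2, 3 and 4 of the gene and Emx1-Cre, which is active in the cortical progenitors, removes them (Syncrip fl/fl; Emx1-Cre, called cKO). Mice called WT were the controls. NPCs of embryos at E14.5 (days after conception) were taken from the lateral ventricles and grown with EGF and bFGF, and the RNA of 3 WT and 3 cKO cultures was sequenced. The neocortex of 1 WT and 1 cKO embryo of E14.5 was taken for single-cell RNA sequencing, which counts tagged RNA molecules (UMIs) at the 3′ end of the RNA. A further set of 3 libraries, of RNA pulled down with SYNCRIP or with control IgG, was not analysed here. Nothing in the labels says that the cultures came from separate embryos, so a p-value between them measures the spread between these cultures, which may be technical.

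A histone messenger RNA of this class ends in a conserved stem-loop in place of a poly(A) tail. SLBP binds the stem-loop, the U7 small nuclear RNP with LSM10 and LSM11 helps to cut the RNA behind it, and the messages are made in S phase and degraded at its end. Some of these genes can also give a longer RNA that runs past the stem-loop and ends in a poly(A) tail, which is known from cells that have left the cell cycle. The droplet method primes on poly(A), and how RNA was selected for the cultures is not given in the labels or methods read here.

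The stem-loop was read from the mouse genome (GRCm38, the assembly of mm10) in the 150 bases after each stop codon of GENCODE M21. It was found for 66 of the 67 coding genes among the 70 listed symbols, with or without counts, 22 to 59 bases after the stop codon, and for 9 of the 4473 other coding genes on the same chromosomes (0.201%). The exception was Hist2h2be, where these letters were not in the window. The following 16 bases are shown because they are the element that defines the class. Hist1h1c, Hist1h1b and Hist1h4h are named because the results below return to them, and Hist1h2an for its shorter stem only. Capitals mark the 2 arms of the stem and lower case the loop.
Hist1h1c, chr13:23739512-23739527, plus strand: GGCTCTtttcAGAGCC
Hist1h1b, chr13:21779837-21779852, minus strand: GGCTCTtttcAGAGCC
Hist1h4h, chr13:23531458-23531473, plus strand: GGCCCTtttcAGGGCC
Hist1h2an, the 1 gene whose stem has 5 pairs in place of 6: GGCTCTtttcAGAGCT
The first form was shared by 41 genes of the H1, H2A, H2B and H3 families, and the form of Hist1h4h by 8 of the 13 H4 genes. In all, 9 forms were seen.

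The annotated ends of the genes differed more than the stem-loops. A poly(A) signal (AATAAA or ATTAAA) stood in the last 40 bases of an annotated transcript of 17 coding histone genes (25.4%) and of 76.2% of 21810 other coding genes. Hist3h2ba and Hist3h2a, which code for an H2B and an H2A and lie close together on chromosome 11, are among the 17. Hist1h1c, which codes for the linker histone H1.2, is another, and its annotated span ran 840 bases past the stem-loop. For Hist1h1b (H1.5) the annotated span stopped short of the stem-loop. The span used for counting in the cultures ran over 100 bases past the stem-loop in 17 coding genes, with a median total of 37 reads over the 6 cultures, and the other 49 had a median of 8.

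Promoters were compared by letters only. Of the 70 symbols, 61 matched a RefSeq promoter window of 250 bases before to 50 bases after the start (GRCm38.p6). The octamer ATTTGCAT, searched on both strands, stood in 7 of 16 H2B and 7 of 17 H2A windows and in no H1, H3 or H4 window, against 1.97% of 27025 windows of all genes. H2A and H2B genes often lie head to head, so a window can hold the promoter of both. CCAAT stood in every H1, H2A, H2B and H3 window, in 3 of 12 H4 windows (25.0%) and in 41.1% of all windows. TATAAA stood in 57.4% of the histone windows and 15.7% of all windows.

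The cultures held few reads of most histone genes. The libraries summed to 16962903 to 22708400 counts, and 19195 counts in all fell on the histone genes. Hist1h1c, Hist1h2bc, Hist3h2ba, Hist1h2be and Hist2h2be together held 88.0% of them. These are shares of reads and not of molecules, since longer spans collect more reads. The other genes were close to the limit of detection, and 41 of the 59 genes with counts did not pass the filter on low counts, with a median of 10 and at most 54 reads over 6 cultures.

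Of the 70 histone symbols in the culture table, 11 were at 0 in every culture, and for most of them the overlap with another gene went with the zero. A total of 7 symbols lay wholly within the span of other genes (Hist3h2a, Hist2h2bb, Hist2h2aa1, Hist2h3b, Hist1h4b, Hist2h3c1 and Hist2h2aa2), and all 7 were at 0. The whole table showed the same: 10806 of 10809 wholly overlapped genes (99.97%) were at 0, against 51.5% of the 27220 genes with no overlap. Hist3h2a, whose span from 58954685 to 58956830 on chromosome 11 lies within Trim17 and Gm44313, had 36766 UMIs in the single cells, the most of the 7. Hist2h2bb had 2177 UMIs and Hist2h2aa1 836. Together the 8 genes at 0 in the cultures that had any UMI held 9.48% of the histone UMIs, so a zero in the cultures does not show that these genes were silent. A further 17 H2A genes were overlapped in part, over 27.1% to 68.5% of the span, mostly by predicted genes. Hist1h2ba and Hist1h2aa, known from the testis, had no count in the cultures and no UMI.

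Reads of near-identical genes cannot always be told apart either. More than 50% of the 150-base windows of 24 coding genes were also found in a transcript of another gene, while 13 genes shared none. Single windows were compared, although reads came in pairs. Some of the 24 shared windows only with genes that overlap them in place, as Hist2h2bb (100%) with Gm20628 and Gm42743 and Hist2h2ab (52.5%) with Gm15444. Hist1h1b, Hist1h1c and Hist1h1d shared no window, Hist1h2bc shared 17.4% and Hist1h4h 28.0%.

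The comparison of the cultures asks which histone messages differ between cKO and WT NPCs. The targeted gene was looked at first: Syncrip stood at 77.9, 79.8 and 79.9 CPM (counts scaled to the same total in each library) in the WT and at 90.3, 88.7 and 81.5 CPM in the cKO cultures. The log2 fold change was 0.13 ± 0.08 (SE, adjusted p = 0.18, edgeR quasi-likelihood test). The count covers the whole gene, with exons outside the deleted ones, so it did not check the label, and the cultures are called cKO here by label only. The paper itself shows read tracks of cKO neurospheres that lack the deleted exons, and such tracks were not examined here.

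Some linker histone messages were higher in the cultures labelled cKO. Of the 6 H1 genes, 4 could be tested, and Hist1h1c, Hist1h1d and Hist1h1b rose, while Hist1h1e did not pass. Among the core histones, Hist1h2bc (an H2B) and the pseudogene Hist3h2bb-ps rose and Hist1h4h (an H4) fell. In all, 5 of 18 tested histone genes rose and 1 fell (adjusted p under 0.05 over 14432 genes). Hist1h1b passed the filter on low counts only through the cKO cultures, and Hist1h4h only through the WT cultures. Both thus entered the test through the group where they were high, so these counts of calls depend on the filter. The culture comparison called 39.5% of all genes tested, 19.7% as higher and 19.8% as lower, so the 33.3% of histone genes called was near the background. The groups did not overlap in 8 of the 18, against 50.4% of all genes tested. The median log2 fold change was 0.06 over the 18 and 0.00 over all genes tested. These depend on the filter and the cultures: with every counted gene tested 9 histone genes rose and the median was 0.43, with a minimum of 1 CPM 3 rose and it was -0.06, and without any 1 culture it ran from -0.18 (without cKO 3) to 0.17 (without cKO 1), with -0.15 without WT 3 and a value above 0 without each of the others.

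Hist1h1c was the most counted histone gene, on chromosome 13 from 23738808 to 23740367. It stood at 43.7, 47.2 and 42.6 CPM in WT and at 73.5, 76.9 and 80.8 CPM in the cKO cultures, that is 44.5 ± 2.41 and 77.1 ± 3.62 (SD, n = 3 each). Every cKO culture lay above every WT culture, and the log2 fold change was 0.79 ± 0.09 (SE, adjusted p = 9.93e-06, edgeR). Hist1h1d, which codes for H1.3 and spans 23555087 to 23555830 on the same chromosome, was lower in reads. It stood at 0.585, 0.334 and 0.892 CPM in WT and at 2.26, 2.50 and 3.52 CPM in the cKO cultures, with no overlap and a log2 fold change of 2.15 ± 0.36 (adjusted p = 0.000365, edgeR).

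Hist1h1b rested on very few reads, 5, 1 and 3 in the WT and 13, 14 and 11 in the cKO cultures. The groups did not overlap, and its log2 fold change was 2.15 ± 0.56 (adjusted p = 0.00779, edgeR). Hist1h1e (H1.4) stood at 0.630, 1.67 and 1.34 CPM in WT and at 0.883, 1.11 and 1.11 CPM in the cKO cultures. These groups overlapped, and the log2 difference was -0.22 ± 0.38 (adjusted p = 0.685, edgeR). The 4 tested H1 genes therefore did not all pass in the same direction.

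**Figure D1:**
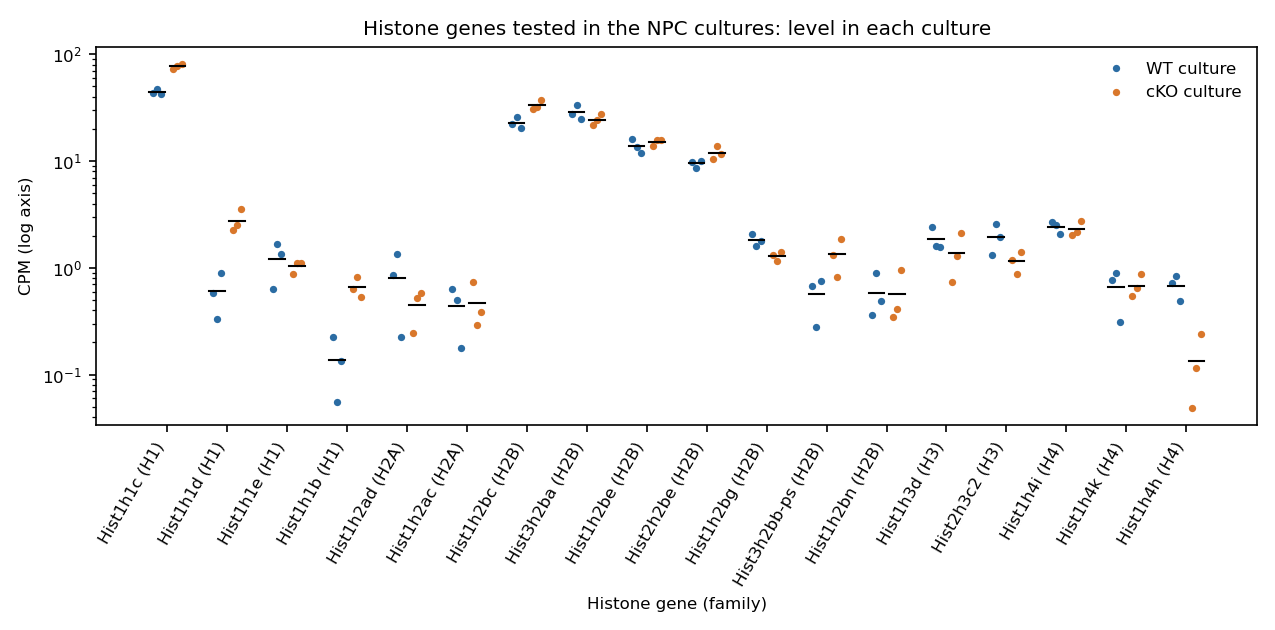
Level of each of the 18 tested histone genes in CPM (log axis) in each of 3 WT and 3 cKO cultures, with points for cultures and lines for means. Hist1h1c lay at 42.6 to 47.2 CPM in WT and 73.5 to 80.8 CPM in the cKO cultures, and most other genes lay under 3 CPM in both.

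Hist1h2bc, an H2B gene whose counted span of 8290 bases holds the longest run past a stem-loop in the set (7826 bases), stood at 22.0, 26.1 and 20.5 CPM in WT. In the cKO cultures it stood at 31.0, 32.3 and 37.2 CPM. The groups did not overlap and the log2 fold change was 0.55 ± 0.11 (adjusted p = 0.00169, edgeR). The other well counted H2B genes did not pass. Hist2h2be stood at 9.82, 8.63 and 10.1 CPM in WT and at 10.5, 13.8 and 11.7 CPM in the cKO cultures, with no overlap and a log2 difference of 0.33 ± 0.14 (adjusted p = 0.0831, edgeR). Hist3h2ba stood at 28.7 ± 4.44 CPM in WT and 24.5 ± 3.11 CPM in the cKO cultures (log2 difference -0.23 ± 0.13, adjusted p = 0.164, edgeR). Hist1h2be stood at 13.9 ± 2.19 and 15.2 ± 1.07 CPM, with a log2 difference of 0.13 ± 0.14 (adjusted p = 0.492, edgeR).

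Hist3h2bb-ps, a processed pseudogene on chromosome 11 between Hist3h2ba and Hist3h2a, rested on 15, 5 and 17 reads in WT and 27, 14 and 39 in cKO cultures. Its log2 fold change was 1.21 ± 0.43 (adjusted p = 0.0382, edgeR), and this call was lost with DESeq2, with the sex of the culture in the fit and without any of 3 cultures (WT 2, cKO 1 or cKO 3). Hist1h4h, an H4 gene on chromosome 13 from 23531050 to 23531522, went the other way. It had 16, 15 and 11 reads in WT and 1, 2 and 5 in cKO cultures, with no overlap and a log2 fold change of -2.25 ± 0.59 (adjusted p = 0.00777, edgeR). Over 1 CPM in at least 3 cultures was reached by neither Hist1h4h nor Hist1h1b, so a stricter filter leaves both untested.

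The most counted H3 and H4 genes did not pass. Hist2h3c2 stood at 1.94 ± 0.628 CPM in WT and 1.15 ± 0.263 CPM in the cKO cultures, with a log2 difference of -0.73 ± 0.34 (adjusted p = 0.0979, edgeR), and it passed only without WT culture 1. Hist1h3d differed by -0.44 ± 0.37 on the log2 scale and Hist1h4i by -0.07 ± 0.25. Hist1h4k differed by 0.08 ± 0.45. The H2A genes were the worst counted: Hist1h2ad and Hist1h2ac were the only H2A genes tested, with log2 differences of -0.80 ± 0.57 and 0.14 ± 0.55. Hist1h2ae, next in reads among the H2A genes, had 50 reads in all and was not tested, as was Hist1h3i among the H3 genes.

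**Figure D2:**
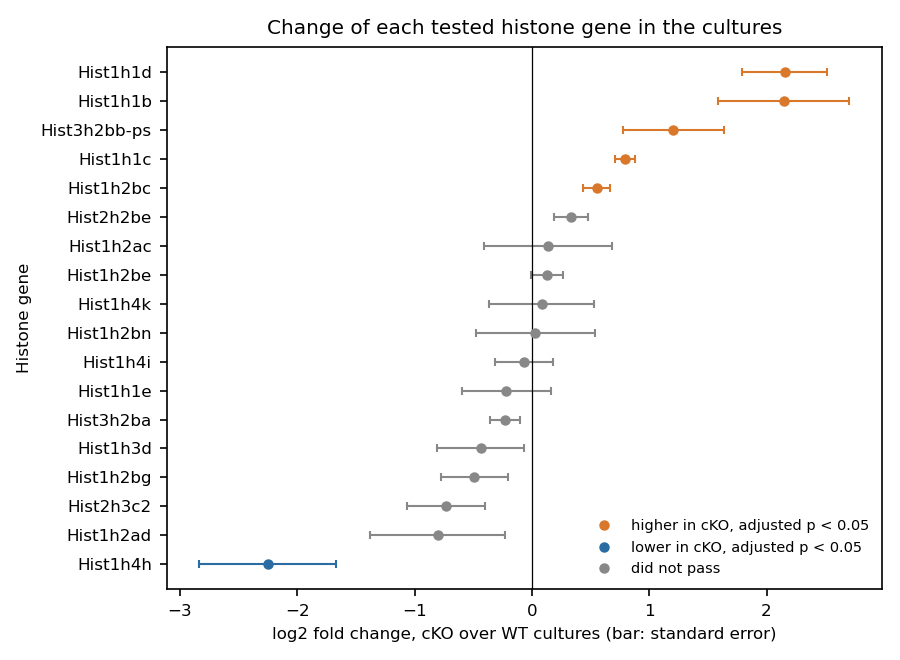
Log2 fold change of cKO over WT cultures (x axis) with its standard error for the 18 tested histone genes (y axis). The 5 genes that rose lie between 0.55 and 2.15, the 1 that fell at -2.25, and 12 did not pass.

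Summed over families, H1 stood at 45.2, 49.3 and 45.1 CPM in WT and at 77.3, 81.5 and 86.1 CPM in the cKO cultures, and the groups did not overlap. Most of the H1 sum was Hist1h1c, with means of 44.5 of 46.5 CPM in WT and 77.1 of 81.6 CPM in the cKO cultures. H2B stood at 79.0 ± 7.28 CPM in WT and 90.2 ± 8.47 CPM in the cKO cultures, with overlap. The sums of H2A (2.29 ± 1.10 and 1.78 ± 0.270 CPM), H3 (4.84 ± 0.421 and 4.17 ± 1.45 CPM) and H4 (4.74 ± 0.965 and 4.81 ± 0.851 CPM) also overlapped. All histone genes together came to 137 ± 11.6 CPM in WT and 183 ± 15.2 CPM in the cKO cultures without overlap. Without Hist1h1c the sums were 92.8 ± 9.32 and 106 ± 11.5 CPM and did overlap, so the difference of the whole sum rested on this gene.

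Of 14 genes for histone gene transcription, 3′ processing and decay, all tested, 2 rose and 2 fell, a smaller share than the 39.5% called among all genes tested. Slbp, the stem-loop binder, stood at 27.9, 22.3 and 20.6 CPM in WT and at 32.0, 32.2 and 29.8 CPM in the cKO cultures (log2 fold change 0.41 ± 0.12, adjusted p = 0.0122, edgeR). Srrt, which links the cap-binding complex to 3′ processing, rose by a log2 fold change of 0.32 ± 0.09 (adjusted p = 0.0114, edgeR). Both U7 proteins fell: Lsm10 from 12.5 ± 1.36 to 8.76 ± 0.278 CPM (log2 fold change -0.51 ± 0.14, adjusted p = 0.00998, edgeR) and Lsm11 from 33.3 ± 1.21 to 26.3 ± 0.871 CPM (log2 fold change -0.34 ± 0.09, adjusted p = 0.00918, edgeR). The call of Slbp was lost without WT culture 2 or cKO culture 1 and that of Srrt without cKO culture 3. Npat, the coactivator of histone gene transcription, differed by 0.02 ± 0.09 on the log2 scale and Casp8ap2 by 0.10 ± 0.10.

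Among all genes tested, 39.5% were called, with 19.7% higher and 19.8% lower. Of 17 histone chaperones and assembly factors, 16 were tested, 6 rose and none fell. They were Chaf1a and Chaf1b of the CAF-1 complex, which loads H3 and H4 behind the replication fork, Asf1b, which hands H3 and H4 to it, Nap1l1, a carrier of H2A and H2B, Atrx, a chromatin remodeller that works with Daxx, and the import factor Ipo4. Their log2 fold changes ran from 0.27 (Ipo4) to 0.81 (Chaf1b). Chaf1b stood at 3.65, 3.84 and 3.39 CPM in WT and at 4.22, 7.63 and 7.28 CPM in the cKO cultures, where cKO culture 1 lay close to the WT cultures. Without cKO culture 3 the calls of Asf1b, Chaf1a, Chaf1b and Atrx were lost, and without cKO culture 2 those of Chaf1a, Chaf1b and Ipo4. Leaving out WT culture 1 or 3 also ended the call of Chaf1a, and leaving out WT culture 2 or cKO culture 1 that of Atrx. Asf1a was listed at 0.

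Of 11 variant histone genes, whose symbols fall outside the set, 4 rose and 1 fell. Cenpa, the centromeric H3, rose most, from 9.52 ± 0.692 to 24.1 ± 7.94 CPM (log2 fold change 1.34 ± 0.21, adjusted p = 0.000281, edgeR). The genes for the H3 variant H3.3 went opposite ways: H3f3b rose by a log2 fold change of 0.45 ± 0.08 and H3f3a fell by 0.38 on the log2 scale (± 0.10). The linker variants H1f0 and H1fx rose by log2 fold changes of 0.24 ± 0.09 and 0.38 ± 0.13. The call of H1fx was lost without any 1 culture other than cKO 1, and that of H1f0 without any 1 culture other than WT 2. H2afz differed by -0.12 ± 0.09 and did not pass. Over the 3 lists 15 of 41 tested genes were called, against 39.5% of all genes.

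Cell cycle genes and cell type markers moved in the same cultures, and their counts are to be read against the 19.7% of all tested genes called higher and the 19.8% called lower. Of 43 S phase genes, 42 were tested, 20 rose and none fell, with a median log2 fold change of 0.35. Of 52 tested G2/M genes 43 rose and 3 fell, with a median of 0.96. Top2a, a G2/M gene, rose by a log2 fold change of 1.02 ± 0.12 and Mki67 by 0.76 ± 0.13. Both calls were lost when the replicate number was added to the fit. Mcm2, of the replication helicase, rose by 0.46 ± 0.10, while Pcna, the sliding clamp, differed by 0.11 ± 0.10 and did not pass. Of 10 tested neuron markers 7 fell and none rose, and the summed level of all 12 was 2090 to 2445 CPM in WT and 2208 to 2341 CPM in the cKO cultures, with Tubb3 and Neurod1 listed at 0. Of 5 tested astrocyte markers 4 fell (sums 4007 to 4430 and 2439 to 2751 CPM, Gfap listed at 0). Of 6 oligodendrocyte lineage markers 2 rose and 1 fell (sums 3244 to 3478 and 2781 to 3207 CPM). The part of these shifts in the histone values was not tested, and in bulk samples more cells of a kind and more RNA per cell cannot be told apart. Counts of Y-linked genes were high in WT cultures 1 and 2 and cKO culture 1 and near 0 in the others, so both genotypes held cultures of both sexes.

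In the single cells the question was in which cell types the histone genes were used, and whether their level differed between the embryos. After filtering, 8214 WT and 9560 cKO cells were kept with medians of 11705 and 11012.5 UMIs, and 22 barcodes occurred in both libraries. Clustering without the histone genes gave 25 clusters, which were named from fixed markers: 3 as apical progenitor-like (AP-like), 3 as intermediate progenitor-like (IP-like), and 5 as ganglionic eminence-like (GE-like), among others, while 3 stayed unnamed. With 1 embryo per genotype there is no test between genotypes, and every interval here covers counting error only. The UMIs of Syncrip are read at its 3′ end, outside the deleted exons, and do not check the deletion: AP-like cells held 315 CPM of Syncrip in WT and 323 CPM in the cKO.

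Summed histone UMIs were highest in the AP-like, IP-like and GE-like cells. AP-like cells held 4558 CPM in WT (95% exact Poisson interval 4521 to 4595) and 4222 CPM in the cKO (4193 to 4252). IP-like cells held 3409 and 3599 CPM and GE-like cells 3258 and 2576 CPM. Migrating neuron-like cells held 1433 and 1350 CPM and immature neuron-like cells 1041 and 1030 CPM. Red blood cell-like cells held 437 and 506 CPM, the lowest level of the named classes in both libraries.

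**Figure D3:**
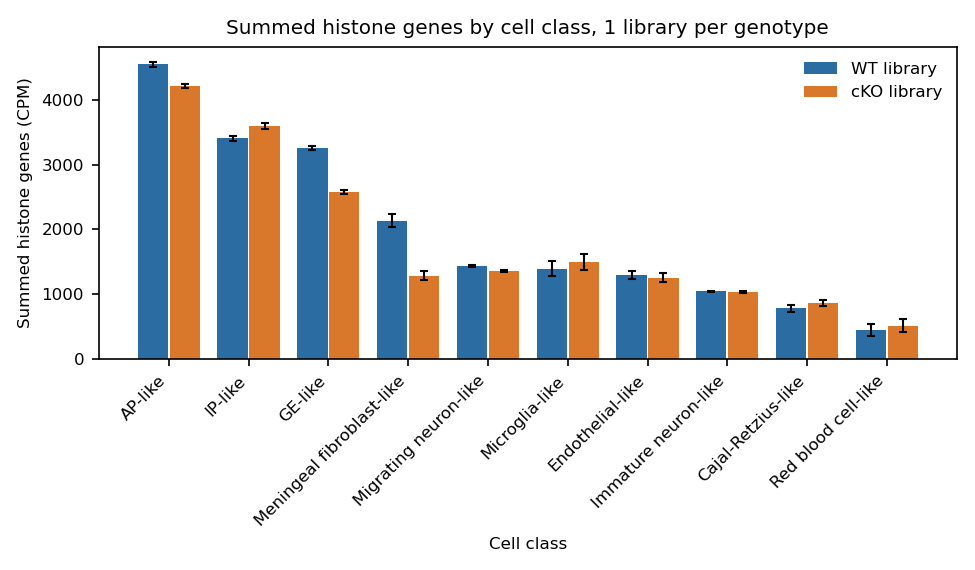
Summed histone genes in CPM (y axis) by cell class for the WT and the cKO library, with 95% exact Poisson intervals. The AP-like cells reach 4558 and 4222 CPM and the immature neuron-like cells 1041 and 1030 CPM.

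Within each of these classes the level differed widely between clusters. Among AP-like cells, cluster 9, led by Aurkb, Ccnb1 and Plk1, held 7540 CPM in WT and 7712 CPM in the cKO. Cluster 6, led by Tnc, Aldoc and Hes5, held 1653 and 1230 CPM, and cluster 13, of low depth and led by Hba-x, Mt3 and Mt1, held 6585 and 5241 CPM. Among IP-like cells the cycling cluster 14 held 7124 and 7406 CPM and cluster 10, led by Neurog1 and Neurog2, 1087 and 924 CPM. Among GE-like cells cluster 15, with Helt and Gsx2 among its leading genes, held 11390 and 8198 CPM, while cluster 4, led by Sst, Nxph1 and Nxph2, held 1173 and 1180 CPM. The clusters themselves were made without histone genes, so histone counts did not shape them. The cycle genes that did shape them are used in the same phases, so this order is not independent of the clustering.

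Most single AP-like cells held a low histone load, and the rest formed a long tail above it. Each cell with 5000 or more UMIs was thinned to 5000, which kept 785 of 967 WT and 1145 of 1319 cKO AP-like cells. Nearly every cell had a histone UMI, 98.98% (98.00 to 99.56) in WT and 99.21% (98.51 to 99.64) in cKO, against 98.14% and 99.39% before thinning, and 98.01% and 98.02% of thinned immature neuron-like cells did as well. The share with any UMI thus did not separate progenitors from neurons. The number per cell did: 22.0% of WT AP-like cells (95% exact interval 19.2 to 25.1) and 24.8% of cKO AP-like cells (22.3 to 27.4) held 20 or more histone UMIs in 5000, and these cells carried 78.7% and 79.8% of the histone UMIs of the class. In immature neuron-like cells 0 of 2261 WT cells (which allows a share of up to 0.133%, 3 counts) and 4 of 2318 cKO cells did.

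The bound of 20 was set with the values seen, and 34 WT and 45 cKO AP-like cells lay within 5 UMIs of it. In cKO the bins of 5 UMIs from 20 to 59 held 14 to 22 cells each with no dip. In WT the bins from 20 to 39 held 8, 8, 6 and 5 cells and those from 40 to 59 held 10 to 17. The WT bins from 60 to 74 again held 6 each, so the bound cuts a tail and does not mark a separate group. AP-like cells past the bound held a median of 69.0 histone UMIs in WT and 57.5 in cKO, and those under it 6.0 and 5.0. The cells past the bound also held more of some other cycle genes: Top2a stood at 879 CPM in WT and 943 CPM in the cKO against 198 and 199 CPM in the rest. Pcna stood at 436 and 401 CPM against 165 and 236 CPM, and Slbp at 202 and 197 CPM against 89.7 and 112 CPM. Mcm2 stood at 49.0 and 50.8 CPM against 40.4 and 58.6 CPM, so in the cKO it was lower past the bound. By the phase scores described below, 68.8% of these WT and 75.4% of these cKO cells were called G2/M. Those called S were 31.2% and 24.6%, against 25.2% and 40.1% of the AP-like cells under the bound. The cells past the bound were 11.96% of IP-like cells in WT (9.21 to 15.2) and 17.6% in cKO (14.4 to 21.2), and 10.0% (8.16 to 12.2) and 8.03% (6.60 to 9.66) of GE-like cells.

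**Figure D4:**
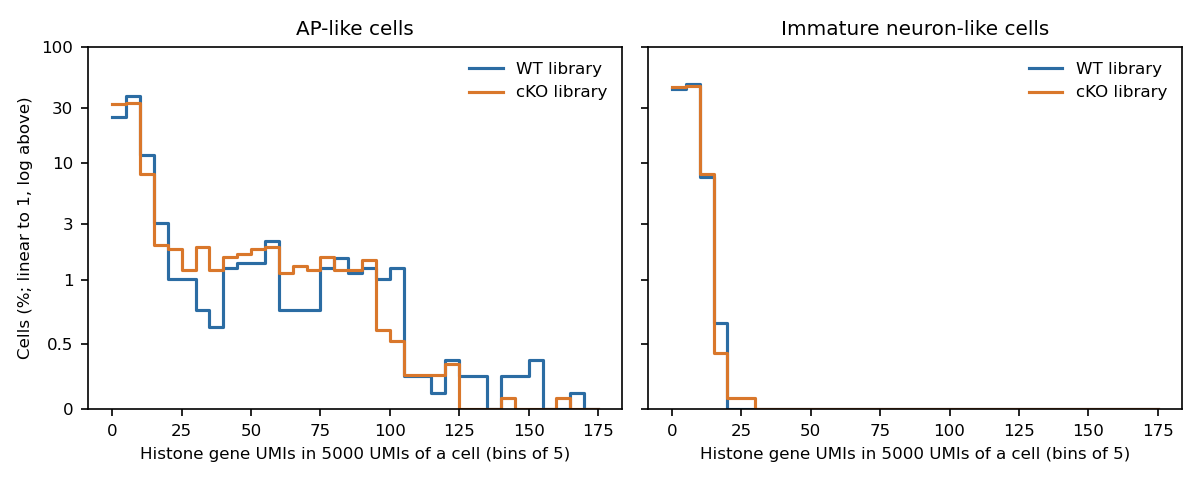
Share of cells in percent (y axis, linear to 1 and logarithmic above) by histone UMIs in 5000 UMIs of the cell (x axis, bins of 5) for AP-like and immature neuron-like cells. In AP-like cells 22.0% (WT) and 24.8% (cKO) lie at 20 or more, and in immature neuron-like cells 0 and 4 cells do.

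Phase calls from S and G2/M gene scores gave the same order. AP-like cells called G1 held 1180 CPM of histone UMIs in WT and 899 CPM in the cKO. Cells called G2/M held 5479 and 5677 CPM. Cells called S held 5173 CPM in WT and 3138 CPM in the cKO, the widest gap among the phases in this class. It was not particular to AP-like cells: GE-like cells called S held 6956 and 4224 CPM, and those called G2/M 11326 and 8316 CPM. IP-like cells called S went the other way, at 6436 and 7252 CPM. The calls are coarse, since the median AP-like cell called S held 7.0 histone UMIs in 5000 in WT and 6.0 in cKO while the 90th percentile was 85.2 and 47.6. The share of AP-like cells called S was 26.5% in WT (23.4 to 29.7) and 36.2% in cKO (33.5 to 39.1), and free RNA can enter such calls, which was not tested.

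Between the embryos the summed level in AP-like cells differed by a log2 ratio of -0.11 (95% exact interval -0.13 to -0.10), cKO over WT. This value moves with the cells taken: cluster 9 gave 0.03 (0.02 to 0.05), cluster 6 gave -0.43 (-0.46 to -0.39), and equal weight on the 3 phases gave -0.28. In IP-like cells the ratio was 0.08 (0.05 to 0.10), and it turned to -0.06 with a minimum of 1000 genes per cell, so its direction did not hold. In GE-like cells, which lie outside the reach of Emx1-Cre, the ratio was -0.34 (-0.36 to -0.32), larger in size than in AP-like cells. Top2a in the same GE-like cells stood at 237 CPM in WT and 205 CPM in the cKO. With 1 embryo each, genotype, embryo and library cannot be told apart.

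Since the droplet method primes on poly(A), UMIs need not follow the amount of the messages that end at the stem-loop. The 10 histone genes with the most UMIs held 79.7% of all histone UMIs, and they differed in which cells held these UMIs. Hist1h1b was the most unequal of those higher in AP-like cells. It stood at 718 CPM in WT (704 to 733) and 675 CPM in the cKO AP-like cells (663 to 686), against 6.998 and 9.38 CPM in immature neuron-like cells, a log2 ratio of 6.68 in WT and 6.17 in cKO. After thinning, 45.1% of WT and 44.9% of cKO AP-like cells held a Hist1h1b UMI, and 2.70% and 3.11% of immature neuron-like cells did, at median depths of 12457 and 12651 UMIs for AP-like and 15312 and 14694.5 for immature neuron-like cells. Before thinning these shares were 60.6%, 61.1%, 7.46% and 7.61%.

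The H2A genes Hist1h2ab and Hist1h2ap behaved alike, at log2 ratios of 5.22 and 5.03 (AP-like over immature neuron-like cells, WT). Hist1h2ae (3.91), Hist1h1e (3.83) and the H4 gene Hist1h4d (2.94) followed. In the cKO library the same 5 genes had log2 ratios of 4.96, 5.20, 4.11, 3.997 and 3.38. Between the embryos Hist1h2ap in AP-like cells stood at 529 CPM in WT and 406 CPM in the cKO. Of its 150-base windows 91.0% are shared with other genes, mostly H2A, so its UMIs may belong in part to them.

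Hist3h2ba and Hist3h2a were higher in neuron-like cells. Hist3h2ba, the histone gene with the most UMIs (105684), stood at 183 CPM in WT (176 to 191) and 192 CPM in the cKO AP-like cells (186 to 198). It stood at 766 CPM in WT (753 to 780) and 779 CPM in the cKO migrating neuron-like cells (767 to 792), and at 494 and 513 CPM in immature neuron-like cells. Red blood cell-like cells held 111 CPM (72.1 to 164) and 202 CPM (148 to 270). Its neighbour Hist3h2a, which the culture table leaves at 0, followed it at 55.7 and 69.0 CPM in AP-like, 254 and 255 CPM in migrating neuron-like, and 200 and 218 CPM in immature neuron-like cells. In AP-like cells Hist3h2ba hardly followed the phase, at 203 CPM in G1, 149 CPM in S and 184 CPM in G2/M of WT, while Hist1h1b stood at 59.2, 918 and 870 CPM.

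Hist1h2bc and Hist1h1c lay between. Hist1h2bc stood at 125 and 94.9 CPM in AP-like and 65.3 and 63.5 CPM in immature neuron-like cells (log2 ratios of 0.94 and 0.58), and Hist1h1c at 102 and 72.3 CPM against 33.0 and 27.4 CPM (1.63 and 1.40).

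Over the 63 histone genes with a ratio in both libraries, 59 were higher in AP-like than in immature neuron-like cells in both, and 3 were lower in both: Hist3h2ba, Hist3h2a and Hist2h3c2, the last with 274 UMIs only. The 16 genes with a poly(A) signal near an annotated end had a median log2 ratio of 1.95 in WT and 1.84 in cKO, and the 47 coding genes without it 4.54 and 4.54. Genes of both groups were read in the same libraries, and the ranges overlapped (-1.85 to 4.57 with the signal and -1.32 to 7.69 without it in WT), so this is a description with no test.

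**Figure D5:**
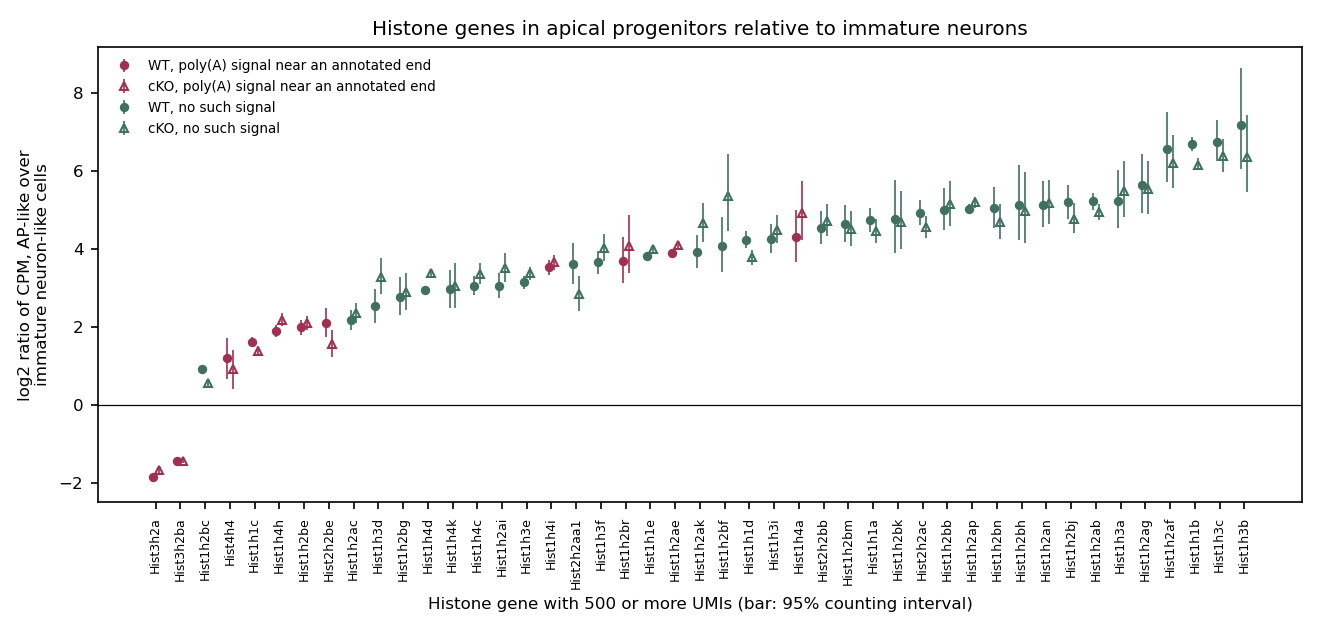
Log2 ratio of CPM in AP-like over immature neuron-like cells (y axis) for the 45 histone genes with 500 or more UMIs (x axis, in order of the WT ratio), with 95% counting intervals, WT as dots and cKO as triangles, coloured by a poly(A) signal near an annotated end. Hist3h2a and Hist3h2ba lie below 0 in both libraries, and Hist1h1b lies at 6.68 in WT.

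By family, H1 genes held 24.9% of the histone UMIs, H2A 27.5%, H2B 32.4%, H3 5.25% and H4 10.0%. The same families held 39.9%, 1.26%, 53.0%, 2.85% and 2.996% of the histone reads in the cultures. The cause of the unlike shares was not tested. Between the embryos, H1 in AP-like cells stood at 1655 CPM in WT and 1471 CPM in the cKO (log2 ratio -0.17, interval -0.20 to -0.14). H3 stood at 331 and 356 CPM (0.11, 0.05 to 0.16). H2B stood at 583 and 566 CPM (-0.04), with an interval that reached 0 (-0.08 to 0.00).

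The genes called in the cultures can be set beside their level in AP-like cells, which are not cultured and come from 1 embryo each. Hist1h1c, higher in cKO cultures, had a log2 ratio of -0.50 in AP-like cells (-0.61 to -0.39), and Hist1h2bc -0.40 (-0.49 to -0.30). Hist1h1d had -0.16 (-0.26 to -0.06) and Hist1h1b -0.09 (-0.13 to -0.05). Hist1h4h, lower in cKO cultures, had -0.27 (-0.40 to -0.13). In cluster 9 alone Hist1h1b gave 0.03 (-0.01 to 0.08), Hist1h1d 0.02 (-0.10 to 0.13) and Hist1h1c -0.31 (-0.44 to -0.18). Over the AP-like class as a whole, none of the 3 H1 genes higher in the cKO cultures had a ratio above 0.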

How the data were processed

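For the cultures the authors deposited raw read counts per gene. Reads (paired ends of 150 bases) were aligned to mm10 with HISAT2 per the labels and methods, and the counting program, its annotation and its use of strand were not stated in what was read. For the single cells they deposited UMI counts made with Cell Ranger. The submitters' processing notes also name Bowtie, cutadapt, DESeq2 and Seurat. Members and lists were chosen with earlier results of these data known. Cultures were compared with edgeR 4.0.16 (quasi-likelihood, TMM, robust, genotype only, filterByExpr, Benjamini-Hochberg, threshold 0.05, tested on simulated data). CPM use TMM library sizes. DESeq2 1.42.0 and limma 3.58.1 were alternatives. The labels do not say whether replicate numbers pair the cultures, and the main fit left these numbers out. Cells below 200 genes or above 10% mitochondrial UMIs were dropped and the rest clustered in Seurat 5.3.0 (2000 variable genes, 30 components, resolution 0.8) without histone genes, genes that the paper reports, sex genes and mitochondrial genes. Doublets were called with Scrublet (scanpy 1.11.5), 298 WT and 451 cKO cells, and kept, except in 1 alternative. A cluster was named from at least 3 markers at 1.5-fold or more, and these thresholds were set with the clusters seen. Intervals are exact (95%, scipy 1.17.1) and cover counting error only. Phases were scored on cells thinned to 5000 UMIs with 43 S and 54 G2/M genes. Named genes were, in cultures, the 3 most counted of each family, the 5 largest rises and falls among called members, called genes of lists of up to 17 genes and 5 reference genes, and in cells the 10 members with the most UMIs. Others named were chosen after their values were seen.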

Additional observations from a re-analysis of the deposited data

Results flagged for a closer look

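The summed histone level differed between the embryos by cell class. The log2 ratio of cKO over WT was -0.11 in AP-like, -0.34 in GE-like and 0.078 in IP-like cells, so the classes moved in opposite directions with counting intervals on either side of 0. The difference between classes was not tested, since there was 1 embryo per genotype, and the direction in IP-like cells turned at 2 other settings.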

How the results depend on the processing

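The count of histone genes called higher in cKO cultures (5) became 9 with every counted gene tested, 3 with a minimum of 1 CPM, and 4 to 5 without any 1 culture. The count called lower (1) became 0 with a minimum of 1 CPM and 1 to 2 without any 1 culture, where leaving out WT culture 1 added Hist2h3c2. The median log2 fold change (0.06) became 0.43 with every counted gene tested, -0.06 with a minimum of 1 CPM, and -0.18 to 0.17 without any 1 culture. In the 3 lists 8 to 14 genes were called without any 1 culture, the lowest without cKO culture 3. With the replicate block, 5 histone genes were called higher and 1 lower, and 6405 genes were called in all against 5701. The calls of Top2a (log2 fold change 1.01) and Mki67 (0.75) were lost. Deviations of same-numbered WT and cKO cultures from their group means correlated at 0.264, -0.0466 and 0.116. Cultures of unlike number were not compared, so these values do not settle whether the numbers pair the cultures. In IP-like cells the log2 ratio became -0.0026 at resolution 1.2, -0.056 with at least 1000 genes per cell, 0.043 with at most 5% mitochondrial UMIs and 0.013 with histone genes kept in the clustering. In AP-like cells it was -0.086 at resolution 1.2, -0.081 without doublets, -0.085 with 1000 genes, -0.28 with phases weighted equally, and -0.091 without cluster 13, a setting chosen after seeing the data. In GE-like cells it was -0.38 without doublets and -0.50 with phases weighted equally. The share of AP-like cells with a histone UMI differed by -1.51 points at 3000 UMIs, against 0.233 points at 5000. Among genes not called, leaving out 1 culture at a time turned the log2 difference of 4. It ran from -0.22 (without cKO 3) to 0.018 (without cKO 1) for Hist1h4i, where WT 1 also turned it, and from -0.54 (without WT 1) to 0.053 (without WT 2) for Hist1h1e. For Hist1h2ac it ran from -0.35 (without cKO 1) to 0.53 (without WT 1), with -0.26 without WT 3, and for Hist1h4k from -0.27 (without WT 3) to 0.33 (without WT 2), with -0.14 without cKO 3. The cause of these shifts was not tested. Few reads per histone gene limit the cultures, and 1 embryo per genotype limits the cells.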
